A study of Mus musculus with 8 samples.

Results

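Full-length ZNF384 was compared with the empty vector in 4 of the 8 RNA libraries of a series on ZNF384 fusions in mouse pre-B cells, with 2 libraries on each side. The 4 libraries were taken by the construct named in their labels and not by any measured value. The comparison covered all genes of the count table: 32499 were listed, 10419 had no count in any library, and 12970 passed a filter on low counts and were tested. All cells were pre-B cells derived from the bone marrow of C57BL/6 mice that lack Arf (Arf-/-), a tumour suppressor product of Cdkn2a. They were transduced with lentivirus and sorted for GFP, so the control cells also carry the Arf deletion, a vector and the sort. One group received HA-tagged full-length ZNF384 (ZNF384-HA) and the other the empty vector. Of the remaining libraries, 2 came from cells with TAF15-ZNF384-HA and 2 from cells with TCF3-ZNF384-HA, and they serve here only to set the levels with full-length ZNF384 beside those with the fusions. The series describes the replicates as biological. The number of mice behind the cells, the promoter driving the constructs, the time between transduction and sorting, and the species of the ZNF384 coding sequence are not given in the sources used here.

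ZNF384 is a zinc finger transcription factor that is expressed in many tissues, and its gene is joined to TAF15, TCF3 and other partners in a subtype of B cell precursor acute lymphoblastic leukaemia. Pre-B cells are bone marrow progenitors that have begun to rearrange their immunoglobulin genes, carry a surrogate light chain on their surface, and depend on IL-7 for growth. Immediate early genes such as Fos, Jun and Egr1 encode short-lived transcription factors that are transcribed soon after growth factor, antigen receptor or stress signals. The integrated stress response, through the transcription factor ATF4, raises amino acid transport and synthesis genes. HIF1 raises glycolysis and hypoxia genes, and SREBP factors raise the genes of sterol and fatty acid synthesis.

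The gene groups that differed between full-length ZNF384 and the empty vector include targets of known DNA elements, and 6 promoters of such genes are shown because they hold the element in the 250 bases before the start site. They were chosen after their values were seen, from genes with a single promoter in the RefSeq promoter table (build GRCm38.p6; the gene coordinates given later are of mm9). Each is written 5′ to 3′ on the strand of its gene. The capitals mark ACGTG on either strand, the core of the hypoxia response element, in Bnip3, Egln3 and Pgk1. They mark TGATGNAA on either strand, the core of the composite element bound by ATF4 dimers, in Asns, Chac1 and Nupr1.
Bnip3 (chr7:138909507-138909756, minus strand): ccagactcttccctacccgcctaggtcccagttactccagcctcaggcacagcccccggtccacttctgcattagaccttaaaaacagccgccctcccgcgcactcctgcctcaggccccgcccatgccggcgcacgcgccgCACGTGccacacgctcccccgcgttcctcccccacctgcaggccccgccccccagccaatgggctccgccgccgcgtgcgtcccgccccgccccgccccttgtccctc
Egln3 (chr12:54203875-54204124, minus strand): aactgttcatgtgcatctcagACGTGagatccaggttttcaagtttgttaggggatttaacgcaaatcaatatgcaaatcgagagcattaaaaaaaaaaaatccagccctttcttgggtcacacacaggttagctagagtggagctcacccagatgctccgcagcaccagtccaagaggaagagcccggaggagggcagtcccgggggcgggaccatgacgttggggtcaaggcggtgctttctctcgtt
Pgk1 (chrX:106186850-106187099, plus strand): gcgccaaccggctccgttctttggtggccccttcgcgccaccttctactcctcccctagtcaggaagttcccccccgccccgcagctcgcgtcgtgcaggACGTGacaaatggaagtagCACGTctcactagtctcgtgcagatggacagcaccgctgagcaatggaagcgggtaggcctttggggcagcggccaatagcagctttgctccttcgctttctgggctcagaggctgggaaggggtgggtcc
Asns (chr6:7693210-7693459, minus strand): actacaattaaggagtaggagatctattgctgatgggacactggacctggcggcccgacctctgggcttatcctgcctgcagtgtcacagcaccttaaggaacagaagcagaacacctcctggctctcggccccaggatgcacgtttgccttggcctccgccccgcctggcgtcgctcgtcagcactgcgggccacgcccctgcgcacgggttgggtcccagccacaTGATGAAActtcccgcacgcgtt
Chac1 (chr2:119350992-119351241, plus strand): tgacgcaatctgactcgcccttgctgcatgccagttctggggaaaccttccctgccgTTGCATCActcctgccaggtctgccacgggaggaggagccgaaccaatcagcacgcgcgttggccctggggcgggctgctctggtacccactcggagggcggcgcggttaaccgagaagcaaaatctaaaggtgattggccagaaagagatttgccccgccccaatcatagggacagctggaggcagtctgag
Nupr1 (chr7:126625471-126625720, minus strand): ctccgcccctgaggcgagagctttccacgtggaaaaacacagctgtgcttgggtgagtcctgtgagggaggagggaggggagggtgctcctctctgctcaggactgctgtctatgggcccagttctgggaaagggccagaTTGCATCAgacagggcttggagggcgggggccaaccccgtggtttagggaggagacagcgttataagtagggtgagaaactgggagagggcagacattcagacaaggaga
Bnip3 encodes a mitophagy receptor, Egln3 a prolyl hydroxylase that marks HIF for degradation, and Pgk1 phosphoglycerate kinase. Asns encodes asparagine synthetase, Chac1 a glutathione-degrading enzyme, and Nupr1 a stress-induced nuclear protein. ACGTG was found in at least 1 promoter window, from 250 bases before to 50 bases after the start, of 18 of the 22 tested hypoxia genes with a promoter in the table (26 tested) and of 15 of 21 tested glycolysis genes (22 tested). The share among all 27025 genes with a promoter was 21.8%. TGATGNAA was found for 6 of 24 integrated stress response genes (27 tested), beside 4.51% of all genes. The cAMP response element TGACGTCA was found for 1 of 21 immediate early genes (25 tested), Maff, beside 2.03% of all genes. For the aminoacyl-tRNA synthetases the same count is not reported here, since only 13 of the 20 tested genes had a promoter in the table. A match is a description of the letters in this window and does not show that a factor binds there.

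Normalised counts are given as counts per 1e6 of the scaled library size (CPM), for replicate 1 and then for replicate 2 of a group. Log2 fold changes are those of full-length ZNF384 over the empty vector unless another pair is named, each with an SE and an adjusted p. The SE was derived from the test, as the absolute log2 fold change divided by the square root of its F statistic. Zfp384, the mouse gene for ZNF384 (mm9 chromosome 6, 124959163 to 124987883), was counted at 23.97 and 21.6 CPM with the empty vector and 51.1 and 90.2 CPM with full-length ZNF384. Both libraries with the construct lay above both control libraries, and the log2 fold change was 1.62 ± 0.25 (adjusted p = 0.00361). The cells with the fusions held more, at 185 and 162 CPM with TAF15-ZNF384 and 511 and 450.2 CPM with TCF3-ZNF384. If the coding sequence of the construct is not the mouse one, only part of its transcripts would be counted here. Taf15 and Tcf3, the partner genes of the fusions, gave log2 fold changes of 0.23 ± 0.11 (adjusted p = 0.17) and -0.06 ± 0.10 (adjusted p = 0.728). The label of pre-B cells was checked on 19 marker genes, all of which were tested. Of these, 4 rose (21.1%), Dntt and Bst1 among them, and 1 fell (5.26%), beside 10.8% and 9.87% of all tested genes. Most of these calls rested on single control libraries. Bst1 (1.417 and 1.628), Igll1 (0.425 and 0.437) and Vpreb3 (0.4266 and 0.4025) lost the call without empty vector replicate 1 and without replicate 2. Ly6d, which fell, lost it without empty vector replicate 2 (-1.21). Pax5, the factor that fixes B cell identity, lay at 1073 and 1026 CPM with the empty vector and 926 and 968 CPM with full-length ZNF384, and the pre-B markers summed to 7489 and 7012 CPM with the empty vector and to 7558 and 7774 CPM with full-length ZNF384. Rag1 and Rag2, which cut the immunoglobulin loci, were under 1 CPM in all 4 libraries.

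The markers of other cells were summed in the same way. The 23 myeloid markers summed to 7.39 and 7.26 CPM with the empty vector and 7.64 and 8.96 CPM with full-length ZNF384, with Lyz1, Ctsg, S100a8 and S100a9 at 0 in all 4 libraries. The erythroid and megakaryocyte markers summed to 4.63 to 6.57 CPM, with Alas2, Pf4 and Ppbp at 0. T and NK cell markers summed to 190 and 179 CPM with the empty vector and 272 and 282 CPM with full-length ZNF384, mostly from Zap70, Thy1, Bcl11b and Lck, while Cd8a and Gata3 were at 0. Thy1 and Bcl11b rose and Tcf7 fell among the 9 that were tested. Tcf7 lost the call without either empty vector library (-2.6 and -2.3) and without either full-length library (-2.2 and -2.7). Stromal markers summed to 261 and 268 CPM and to 335 and 304 CPM, mostly from Vim, Thy1 and Pecam1, and Thy1 was the 1 of 8 tested that changed. Stem and progenitor markers summed to 153 and 140.3 CPM and to 147 and 164 CPM, where Lyl1 and Cd48 rose and Flt3 and Gfi1b fell among 7 tested. Cd48 lost the call without empty vector replicate 2 (0.38). Gfi1b lost it without either empty vector library (-0.28 and -0.38) or without full-length ZNF384 replicate 1 (-0.23). Mature B and plasma cell markers summed to 346 and 376 CPM and to 250.1 and 264 CPM, mostly from Irf4, which fell, while Sdc1 rose, among 7 tested. None of the 3 tested myeloid or the 5 tested erythroid and megakaryocyte markers passed the test. The empty vector libraries held 28469291 and 29072409 counts, and those of full-length ZNF384 held 41483660 and 20298726. Of these counts, 27.2% and 33.2% in the control libraries, against 10.9% and 12.5% in the full-length libraries, fell on 5 highly counted non-coding genes: Rmrp, Rpph1, Gm26917, AY036118 and Gm42418. Their share moved with the groups, and its part in the results was not tested beyond scaling without these genes. In the table, the other 6 libraries carry a replicate suffix that both controls are without, so that the group and a possible separate preparation cannot be told apart. In RNA from bulk samples of sorted cells, fewer cells of one state and less RNA per cell cannot be told apart either.

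With full-length ZNF384, 2675 of 12970 genes differed from the empty vector (20.6%; edgeR quasi-likelihood F test, Benjamini-Hochberg adjusted p under 0.05). Of these, 1395 rose (10.8%) and 1280 fell (9.87%), and the larger changes were mostly decreases: 470 genes fell at least 2-fold (3.62%) and 138 rose at least 2-fold (1.06%). The median log2 fold change over all tested genes was 0.03. Counts of list members that rose or fell are to be read beside the 10.8% and 9.87% of all tested genes. The 15 named genes with the largest decreases include the immediate early genes Klf2, Fos, Egr1, Maff and Jun, the phosphatase genes Dusp4 and Dusp1, the HSP70 genes Hspa1b and Hspa1a, the Notch ligand gene Dll1, and Snai1, Arl4d, Syngr4, Tax1bp3 and Irf7. Those with the largest increases include Gimap7, Dntt, Pfkl, Egln3, Amotl1, Zfp384, Bnip3, Tgtp2, Scd2, Abcg3, Bst1, Lrrn4, Tpi1 and Idh1. Among these, Bst1 lost the call without empty vector replicate 1 (1.42) and without replicate 2 (1.63). Fewer genes passed when either control library was left out than when either full-length library was. The cause was not tested, and each such fit takes the spread within groups from a different set of libraries.

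**Figure D1:**
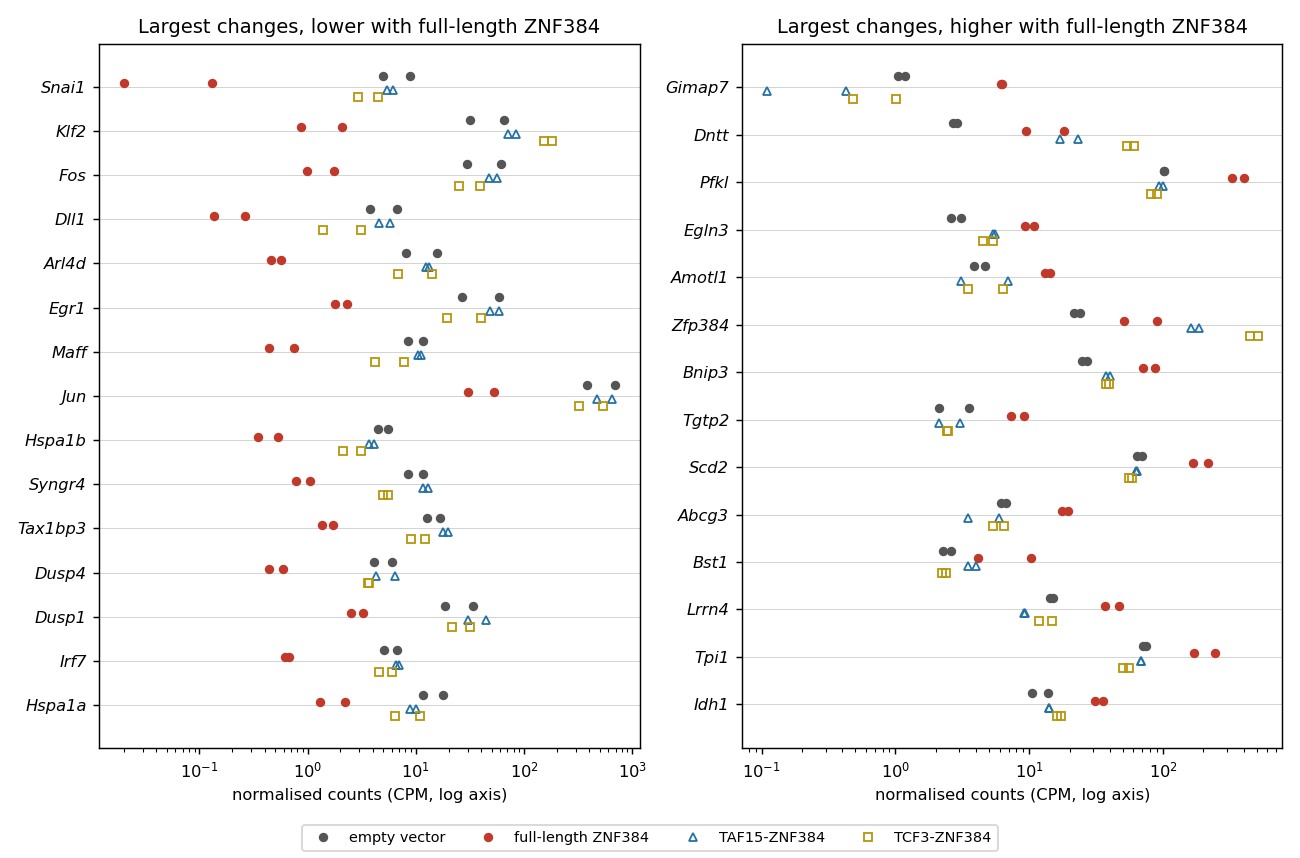
Normalised counts (CPM, log axis) of the 15 genes with the largest decrease (left) and 14 of the 15 with the largest increase (right) in full-length ZNF384 over the empty vector, among genes past the threshold whose groups do not overlap and whose higher group averages at least 5 CPM; each point is 1 library, and a value of 0 is drawn at 0.02 CPM. On the left, the 2 red points of each gene lie apart from both fusions as well as from the empty vector, while on the right Dntt and Zfp384 are highest with TCF3-ZNF384.

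Snai1 (mm9 chromosome 2, 167363695 to 167368314), which encodes a repressor of epithelial genes, had the largest decrease among the genes that met the rule for named genes, which leaves out genes whose higher group averaged under 5 CPM. It was counted at 4.93 and 8.87 CPM with the empty vector and 0 and 0.131 CPM with full-length ZNF384. The full-length libraries held 3 counts together, and the ratio of the empty vector to full-length ZNF384 was 152, with a 95% counting interval from 51.7 to 742 (exact binomial; it covers counting error only). With the fusions its level was 6.09 and 5.39 CPM with TAF15-ZNF384 and 2.95 and 4.42 CPM with TCF3-ZNF384. Both TAF15-ZNF384 libraries lay within the range of the empty vector and both TCF3-ZNF384 libraries below it. Zeb1 and Zeb2, related repressors with much higher counts, did not pass, at log2 fold changes of 0.12 and -0.09. Dll1 (chromosome 17, 15504318 to 15513836), a Notch ligand, gave 3.79 and 6.69 CPM with the empty vector and 0.138 and 0.262 CPM with full-length ZNF384, a log2 fold change of -4.79 ± 0.48 (adjusted p = 2.01e-05). Syngr4, which encodes a synaptogyrin, gave 8.52 and 11.5 CPM with the empty vector and 1.05 and 0.786 CPM with full-length ZNF384, and Tax1bp3, a PDZ domain protein, gave 12.6 and 16.8 CPM with the empty vector and 1.70 and 1.35 CPM with full-length ZNF384. In each of these genes both full-length libraries lay well below both control libraries, and the log2 fold changes were -3.39 ± 0.23 (adjusted p = 1.47e-06) and -3.23 ± 0.21 (adjusted p = 1.37e-06). Arl4d, a small GTPase of the ARF family, had a log2 fold change of -4.56 ± 0.53 (adjusted p = 0.00105), which did not pass without full-length ZNF384 replicate 1, where it was -4.38.

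The immediate early transcription factors had the lowest median of the lists described here. Of 28 listed genes, 25 were tested: 21 fell, 1 rose, and the median log2 fold change was -2.08, against 0.03 over all genes. The untested members were Fosl1, Egr3 and Egr4, and a member had to reach enough counts in some group to be tested. Jun (chromosome 4, 94715725 to 94718913), a subunit of the AP-1 factor, was the most highly counted of them. Its level was 377 and 693 CPM with the empty vector and 30.1 and 53.2 CPM with full-length ZNF384, and with the fusions 649 and 473 CPM with TAF15-ZNF384 and 318 and 533 CPM with TCF3-ZNF384. The full-length libraries lay far below the other 6, although the control libraries differed from each other, and the log2 fold change was -3.70 ± 0.52 (adjusted p = 0.0095). Fos (chromosome 12, 86814840 to 86818223), its AP-1 partner, stood at 29.8 and 60.7 CPM with the empty vector and 0.986 and 1.75 CPM with full-length ZNF384, a log2 fold change of -5.14 ± 0.54 (adjusted p = 0.00235). Klf2 (chromosome 8, 74842932 to 74845555), a factor of lymphocyte quiescence and migration, stood at 31.8 and 65.04 CPM with the empty vector and 0.871 and 2.05 CPM with full-length ZNF384. Its log2 fold change was -5.19 ± 0.53 (adjusted p = 0.00216). With the fusions it stood at 84.8 and 71.6 CPM with TAF15-ZNF384 and 151 and 179 CPM with TCF3-ZNF384. Over the empty vector, TCF3-ZNF384 passed, at 1.77 ± 0.38 (adjusted p = 0.0182), and TAF15-ZNF384 did not, at 0.69 ± 0.39 (adjusted p = 0.326). Egr1, a zinc finger factor, stood at 26.4 and 58.7 CPM with the empty vector and 1.79 and 2.32 CPM with full-length ZNF384, a log2 fold change of -4.41 ± 0.62 (adjusted p = 0.00867).

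Atf3, a stress-induced member of the ATF family, was counted at 62.4 and 88.6 CPM with the empty vector and 8.19 and 13.9 CPM with full-length ZNF384. Its log2 fold change was -2.81 ± 0.28 (adjusted p = 0.000711). Maff (chromosome 15, 79177971 to 79189502), a small MAF protein, gave 8.37 and 11.7 CPM with the empty vector and 0.436 and 0.743 CPM with full-length ZNF384, a log2 fold change of -4.17 ± 0.33 (adjusted p = 5.11e-06). Junb and Jund, further AP-1 subunits, gave log2 fold changes of -1.88 ± 0.22 (adjusted p = 0.00072) and -2.08 ± 0.23 (adjusted p = 0.000259). Ier5, an immediate early nuclear protein, gave 213 and 313 CPM with the empty vector and 53.5 and 53.1 CPM with full-length ZNF384, and the related Ier5l gave 2.70 and 3.87 CPM with the empty vector and 0.321 and 0.655 CPM with full-length ZNF384. Nr4a2, an orphan nuclear receptor, fell by less, at a log2 fold change of -1.21 ± 0.16 (adjusted p = 0.000163). Ier3, chosen after its values were seen, had 37 counts over the empty vector libraries and none over the full-length libraries. It was at least 16.3-fold lower, against a floor of 3 counts over the group, and the list median was -2.08 also with Ier3 at this bound.

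Myc was the one member that rose, from 87.7 and 78.7 CPM to 123 and 115 CPM, a log2 fold change of 0.52 ± 0.10 (adjusted p = 0.00235), though it did not pass without empty vector replicate 2, where it was 0.44. Srf, the factor that binds the promoters of many immediate early genes, lay at 38.9 and 41.2 CPM with the empty vector and 39.3 and 39.7 CPM with full-length ZNF384, and its groups overlapped. Mafk, a relative of Maff, lay at 127 and 125 CPM with the empty vector and 127 and 124 CPM with full-length ZNF384. These 2 members did not pass, with log2 fold changes of -0.02 ± 0.11 (adjusted p = 0.923) and 0.00 ± 0.10 (adjusted p = 0.99).

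In comparisons that use the same full-length libraries, 21 of the 25 tested immediate early genes were lower than with each fusion. Of all tested genes, 15.4% were lower and 17.9% higher than with TAF15-ZNF384, and 22.2% were lower and 23.4% higher than with TCF3-ZNF384. The list medians against the empty vector were 0.08 for TAF15-ZNF384 and -0.45 for TCF3-ZNF384, beside -2.08 for full-length ZNF384. Empty vector replicate 2 lay above replicate 1 for 22 of the 25 genes, and full-length ZNF384 replicate 2 lay above replicate 1 for 18. Without full-length ZNF384 replicate 1, Klf2 (-4.57), Fos (-4.70), Egr1 (-4.21), Jun (-3.35), Ier5 (-2.32) and Junb (-1.81) had the same sign but no longer passed the threshold. Egr1 (-4.58) and Ier5 (-2.31) did not pass without replicate 2 either. The count of members that fell was then 14 without full-length ZNF384 replicate 1 and 19 without replicate 2, and 21 without either of the control libraries.

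**Figure D2:**
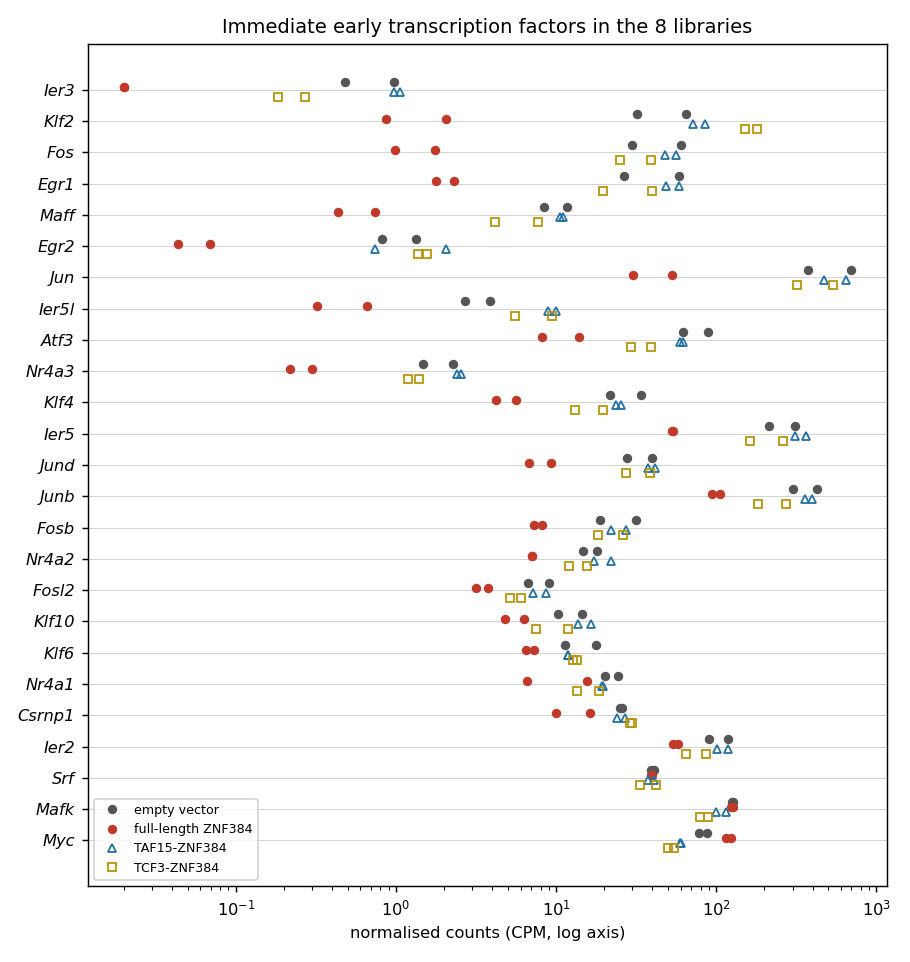
Normalised counts (CPM, log axis) of the 25 tested immediate early transcription factors in the 8 libraries, ordered by the log2 fold change of full-length ZNF384 over the empty vector; each point is 1 library and 0 is drawn at 0.02 CPM. For 21 genes the red points lie left of the grey points at an adjusted p under 0.05, while Srf and Mafk overlap and Myc lies to the right.

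Of 14 tested ERK feedback inhibitors (16 listed, Dusp8 and Errfi1 not tested), 6 fell (42.9%) and 3 rose (21.4%), with a median of -0.35. Among all tested genes 9.87% fell and 10.8% rose. Dusp4 and Dusp1, phosphatases that inactivate MAP kinases, stood at 4.07 and 5.97 CPM with the empty vector and 0.596 and 0.437 CPM with full-length ZNF384 and at 18.7 and 33.3 CPM with the empty vector and 2.52 and 3.28 CPM with full-length ZNF384. Their log2 fold changes were -3.22 ± 0.32 (adjusted p = 1.53e-05) and -3.20 ± 0.39 (adjusted p = 0.00219), of which that of Dusp1 did not pass without full-length ZNF384 replicate 1 (-3.00). Dusp2 and Dusp16, further phosphatases of the family, fell, with log2 fold changes of -0.90 and -0.90. Spred1, a membrane inhibitor of RAS signalling, rose from 65.4 and 65.4 CPM to 132 and 107 CPM, a log2 fold change of 0.87 ± 0.11 (adjusted p = 0.000123). Dusp6 and Spry2, both ERK targets, did not pass, at log2 fold changes of 0.28 and 0.12. The count of members that rose was 1 without empty vector replicate 1, 1 without full-length ZNF384 replicate 1 and 1 when only the 4 libraries were fitted.

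Of 15 factors of mRNA decay and growth arrest, all tested, 8 fell and none rose (median -0.37). Zfp36, which encodes the AU-rich element binding protein tristetraprolin, stood at 206 and 258 CPM with the empty vector and 87.3 and 108 CPM with full-length ZNF384, and the related Zfp36l1 at 144 and 178 CPM with the empty vector and 59.6 and 80.9 CPM with full-length ZNF384. The log2 fold changes were -1.24 ± 0.15 (adjusted p = 0.00011) and -1.20 ± 0.15 (adjusted p = 0.000217). Tob1, an antiproliferative protein that recruits deadenylases, gave 55.1 and 68.6 CPM with the empty vector and 16.3 and 18.7 CPM with full-length ZNF384 and a log2 fold change of -1.83 ± 0.18 (adjusted p = 5.7e-05). Zc3h12a, the endonuclease regnase-1, gave a log2 fold change of -1.22 ± 0.16 (adjusted p = 0.000224), whereas Rc3h1 and Rc3h2, the roquin proteins, did not pass (0.04 and 0.17). The count of members that fell was 5 without empty vector replicate 2.

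Part of the NF-kB genes fell. Of 22 tested subunits and feedback inhibitors (Bcl3 was not tested), 8 fell and none rose, with a median of -0.36. Nfkbia (chromosome 12, 56590398 to 56593634), the inhibitor IkBα and itself an NF-kB target, stood at 349.97 and 399.7 CPM with the empty vector and 95.7 and 112 CPM with full-length ZNF384 and gave a log2 fold change of -1.85 ± 0.13 (adjusted p = 1.79e-06). Relb and Nfkb2, the subunits of the alternative pathway, stood at 7.16 and 8.87 CPM with the empty vector and 1.31 and 2.05 CPM with full-length ZNF384 and at 14.8 and 17.3 CPM with the empty vector and 4.95 and 4.94 CPM with full-length ZNF384. Both fell, with log2 fold changes of -2.31 ± 0.23 (adjusted p = 1.51e-05) and -1.69 ± 0.14 (adjusted p = 3.29e-06). Rel, the c-Rel subunit, had a log2 fold change of -1.25 ± 0.09 (adjusted p = 1.85e-06). The kinase genes Ikbkb and Map3k14 did not pass (0.16 and -0.30). Against the fusions, 11 of the 22 were lower than with TAF15-ZNF384 and 18 were lower than with TCF3-ZNF384, and none were higher. Of all tested genes, 15.4% and 22.2% were lower, and 17.9% and 23.4% higher, than with TAF15-ZNF384 and TCF3-ZNF384.

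Among the surface and secreted proteins of lymphocytes, several fell. Cd69 (chromosome 6, 129217342 to 129225387), an early activation antigen, stood at 199 and 261 CPM with the empty vector and 62.00 and 68.8 CPM with full-length ZNF384, a log2 fold change of -1.82 ± 0.13 (adjusted p = 1.79e-06). Its level with the fusions lay between, at 134 and 142 CPM with TAF15-ZNF384 and 128 and 154 CPM with TCF3-ZNF384. Cd40, a TNF receptor family member, held 1 count over both full-length libraries against 40 over the control libraries, and the ratio was 52.8 with a 95% counting interval from 8.95 to 2137. Tnfsf9 and Ltb, TNF family ligands, fell, with log2 fold changes of -1.25 ± 0.21 (adjusted p = 0.000884) and -0.84 ± 0.14 (adjusted p = 0.00079), while Tnfsf10, the ligand TRAIL, rose, at a log2 fold change of 0.86 ± 0.15 (adjusted p = 0.00119). Of the 16 tested cytokine and TNF family genes 3 fell (18.8%) and 1 rose (6.25%), and 15 of the 31 listed were not tested. Among all tested genes 9.87% fell and 10.8% rose. Irf7 and Irf1, interferon regulatory factors, gave 5.12 and 6.65 CPM with the empty vector and 0.665 and 0.612 CPM with full-length ZNF384 and 46.8 and 63.1 CPM with the empty vector and 23.7 and 25.03 CPM with full-length ZNF384, with log2 fold changes of -3.18 ± 0.26 (adjusted p = 3.89e-06) and -1.17 ± 0.14 (adjusted p = 0.000113). Of 19 tested interferon response genes 4 fell (21.1%) and 1 rose (5.26%), beside the same 9.87% and 10.8% (median -0.0014). Psmb9 and Tap1, of antigen processing, did not pass at 0.22 and -0.13. The interferon genes that fell numbered 2 without empty vector replicate 2 and 2 without full-length ZNF384 replicate 1.

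In the Notch pathway 26 of 31 listed genes were tested, of which 5 fell (19.2%) and 4 rose (15.4%). Of all tested genes 9.87% fell and 10.8% rose. Besides Dll1, the ligand gene Dll4 fell (6.88 and 9.19 CPM with the empty vector and 1.10 and 2.71 CPM with full-length ZNF384; log2 fold change -2.18 ± 0.38 (adjusted p = 0.00383)), and so did Nrarp, a Notch-induced inhibitor of Notch (28.9 and 39.2 CPM with the empty vector and 11.4 and 12.8 CPM with full-length ZNF384; log2 fold change -1.49 ± 0.15 (adjusted p = 2.4e-05)). The receptor gene Notch2 rose, at a log2 fold change of 0.47 ± 0.10 (adjusted p = 0.00488). The metalloprotease Adam10, which cuts Notch receptors, did not pass (0.10). The members that rose numbered 2 without empty vector replicate 1 and 1 without replicate 2.

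Heat shock genes were called in both directions. Of 19 tested (22 listed), 5 fell and 2 rose, and the median was 0.17, or -0.19 without full-length ZNF384 replicate 1. The inducible HSP70 genes Hspa1b and Hspa1a, near-identical copies whose reads may be shared between them, stood at 4.46 and 5.56 CPM with the empty vector and 0.527 and 0.35 CPM with full-length ZNF384 and at 11.6 and 17.8 CPM with the empty vector and 1.31 and 2.23 CPM with full-length ZNF384. Their log2 fold changes were -3.43 ± 0.32 (adjusted p = 9.44e-06) and -3.13 ± 0.32 (adjusted p = 0.000142). Dnajb1, an HSP40 cochaperone, fell at a log2 fold change of -0.70 ± 0.13 (adjusted p = 0.00186). Another HSP40 gene, Dnaja1, fell from 81.7 and 115 CPM to 39.9 and 38.6 CPM, at -1.32 ± 0.19 (adjusted p = 0.0012) on the log2 scale; it lost the call without either full-length library (-1.36 and -1.32). The cochaperone gene Stip1 and the HSP110 family gene Hspa4 rose, with log2 fold changes of 0.48 ± 0.13 (adjusted p = 0.0198) and 0.36 ± 0.12 (adjusted p = 0.0475). Neither passed without empty vector replicate 2 (0.39 and 0.30) or full-length ZNF384 replicate 1 (0.20 and 0.12), and Hspa4 did not pass without empty vector replicate 1 (0.44). The constitutive chaperones Hsp90ab1 and Hspa8 did not pass, at 0.17 and 0.02, with overlapping groups. The heat shock genes that rose numbered 1 without empty vector replicate 1, 0 without empty vector replicate 2 or full-length ZNF384 replicate 1, and 8 without full-length ZNF384 replicate 2.

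Most tested genes of the integrated stress response fell. Of 27 tested genes (30 listed; Slc7a11, Stc2 and Fgf21 were not tested), 19 fell and none rose, with a median of -0.81. Ddit3 (chromosome 10, 126727830 to 126733344), the factor CHOP, stood at 66.5 and 79.9 CPM with the empty vector and 9.17 and 13.1 CPM with full-length ZNF384, a log2 fold change of -2.74 ± 0.15 (adjusted p = 1.21e-06). Trib3, a pseudokinase induced by ATF4 and CHOP, stood at 154 and 162 CPM with the empty vector and 35.8 and 48.5 CPM with full-length ZNF384, a log2 fold change of -1.91 ± 0.13 (adjusted p = 1.47e-06). The full-length libraries lay far below both control libraries for these genes. Slc3a2, the heavy chain of amino acid transporters, and Cth, of cysteine synthesis, gave log2 fold changes of -0.81 ± 0.11 (adjusted p = 0.000143) and -1.05 ± 0.15 (adjusted p = 0.000253). Among the genes whose promoters are shown, Asns gave 233 and 219.8 CPM with the empty vector and 143 and 167 CPM with full-length ZNF384, Chac1 gave 14.4 and 14.9 CPM with the empty vector and 5.30 and 8.87 CPM with full-length ZNF384 and Nupr1 gave 3.99 and 4.72 CPM with the empty vector and 1.17 and 2.01 CPM with full-length ZNF384. These fell, with log2 fold changes of -0.55 ± 0.10 (adjusted p = 0.00185), -1.08 ± 0.20 (adjusted p = 0.00163) and -1.49 ± 0.31 (adjusted p = 0.00438), of which that of Nupr1 did not pass without empty vector replicate 2 (-1.36). Of the 16 genes that fell and had a promoter in the table, 4 held TGATGNAA, beside 6 of the 24 tested with a promoter. Phgdh and Slc7a1, of serine synthesis and cationic amino acid uptake, did not pass (-0.03 and -0.31).

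The list median against the empty vector was -0.75 for TAF15-ZNF384 and -1.26 for TCF3-ZNF384, beside -0.81 for full-length ZNF384, in comparisons that share the control libraries. Trib3 stood at 44.6 and 44.7 CPM with TAF15-ZNF384 and 27.1 and 30.7 CPM with TCF3-ZNF384, and its difference between full-length ZNF384 and TAF15-ZNF384 was a log2 of -0.09 ± 0.13 (adjusted p = 0.633). Against TAF15-ZNF384, 7 of the 27 tested members were lower and 7 higher with full-length ZNF384, and against TCF3-ZNF384 6 were lower and 13 higher. Of all tested genes, 15.4% were lower and 17.9% higher than with TAF15-ZNF384. Against TCF3-ZNF384 these shares were 22.2% and 23.4%. Ddit3 and Atf3 were lower than with either fusion.

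Cytosolic aminoacyl-tRNA synthetases, which charge tRNAs and include ATF4 targets, were lower in 9 of 20 genes and higher in none (median -0.25). Cars and Nars gave log2 fold changes of -0.70 ± 0.13 (adjusted p = 0.00202) and -0.54 ± 0.10 (adjusted p = 0.00176), and the highly counted Eprs and Dars did not pass (-0.10 and 0.14). The count was 4 without empty vector replicate 1, 5 without empty vector replicate 2 and 5 when only the 4 libraries were fitted. Endoplasmic reticulum chaperones moved both ways, with 9 of 26 higher and 5 lower (median 0.24). Pdia4, a disulfide isomerase, rose from 145 and 141 CPM to 258 and 209 CPM, a log2 fold change of 0.71 ± 0.11 (adjusted p = 0.000441). Sdf2l1, a chaperone cofactor, rose, at a log2 fold change of 0.84 ± 0.13 (adjusted p = 0.00057). Dnajb9, a cochaperone of BiP, fell from 27.1 and 38.9 CPM to 13.5 and 12.9 CPM, and Atf6, a sensor of unfolded proteins, fell from 464 and 481 CPM to 314 and 335 CPM. Their log2 fold changes were -1.32 ± 0.18 (adjusted p = 0.000348) and -0.54 ± 0.09 (adjusted p = 0.00102). The chaperones that rose numbered 3 without either of the control libraries or when only the 4 libraries were fitted, and those that fell numbered 2 without empty vector replicate 2.

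**Figure D3:**
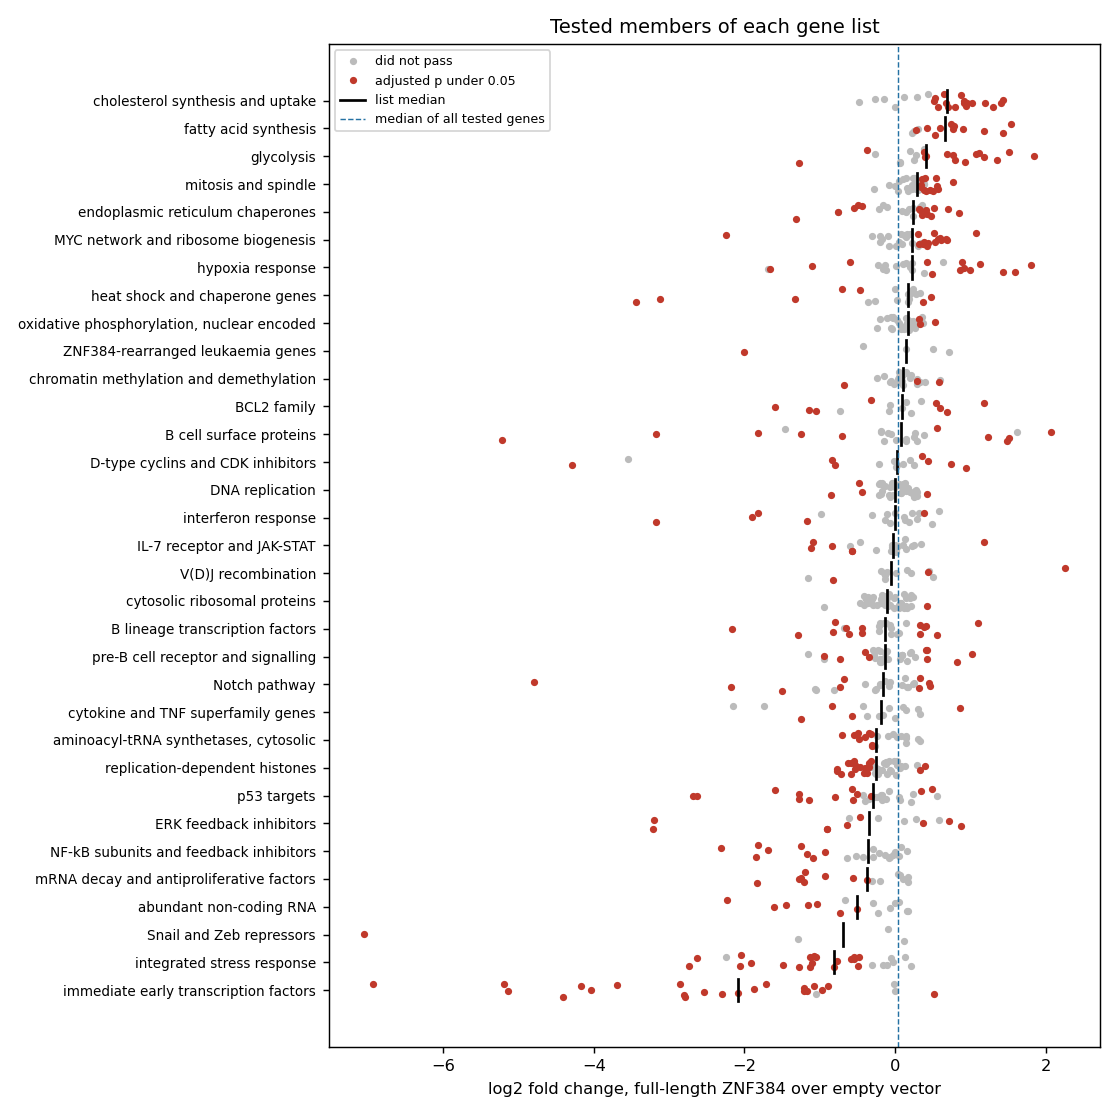
Log2 fold change of full-length ZNF384 over the empty vector for the tested members of 33 gene lists (rows, ordered by their median); each point is 1 gene, red where its adjusted p was under 0.05, black bars are list medians and the dashed line is the median of all tested genes. Immediate early genes (-2.08) and the integrated stress response (-0.81) have the lowest medians, and cholesterol synthesis (0.69) and fatty acid synthesis (0.67) the highest; the fitted values of Snai1 and Ier3 depend on the prior count.

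Most tested glycolysis genes rose. Of 22 tested (24 listed; Eno2 and Slc16a3 were not tested), 13 rose and 2 fell, with a median of 0.41. Pfkl (chromosome 10, 77449692 to 77472828), the liver-type phosphofructokinase of the committing step, stood at 101 and 102 CPM with the empty vector and 327 and 404 CPM with full-length ZNF384. Both full-length libraries lay above the other 6, whose fusion members stood at 92.7 and 99.6 CPM with TAF15-ZNF384 and 81.4 and 90.5 CPM with TCF3-ZNF384, and the log2 fold change was 1.85 ± 0.11 (adjusted p = 1.21e-06). Tpi1 (chromosome 6, 124760604 to 124764314), triose phosphate isomerase, stood at 73.9 and 71.2 CPM with the empty vector and 171 and 244 CPM with full-length ZNF384, a log2 fold change of 1.52 ± 0.14 (adjusted p = 9.96e-06). Eno1 and Eno1b, enolase genes of near-identical sequence whose reads may be split between them, gave log2 fold changes of 1.36 ± 0.11 (adjusted p = 5.11e-06) and 1.43 ± 0.14 (adjusted p = 1.25e-05). Pgk1, whose promoter is shown, stood at 157 and 149.8 CPM with the empty vector and 303 and 393 CPM with full-length ZNF384, a log2 fold change of 1.18 ± 0.12 (adjusted p = 1.95e-05).

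Pgam1, Pkm and Hk2, chosen after their values were seen, cover later and first steps of the pathway. Phosphoglycerate mutase Pgam1 stood at 57.8 and 51.05 CPM with the empty vector and 123 and 113 CPM with full-length ZNF384, pyruvate kinase Pkm at 324 and 323 CPM with the empty vector and 545 and 816 CPM with full-length ZNF384 and hexokinase Hk2 at 108 and 94.4 CPM with the empty vector and 203 and 148 CPM with full-length ZNF384. All rose, with log2 fold changes of 1.11 ± 0.12 (adjusted p = 2.4e-05), 1.07 ± 0.16 (adjusted p = 0.00064) and 0.79 ± 0.14 (adjusted p = 0.00118). Gapdh and Ldha, in contrast, had overlapping groups and did not pass (0.07 ± 0.16 (adjusted p = 0.807) and 0.25 ± 0.13 (adjusted p = 0.183)). Slc16a1, the lactate transporter MCT1, fell from 3089 and 3006 CPM to 2571 and 2129 CPM, a log2 fold change of -0.37 ± 0.10 (adjusted p = 0.0193), which did not pass without empty vector replicate 1 (-0.35) or replicate 2 (-0.39). The list medians were -0.25 for TAF15-ZNF384 and -0.34 for TCF3-ZNF384 against the empty vector. With full-length ZNF384, 15 of the 22 genes were higher than with TAF15-ZNF384 and 16 were higher than with TCF3-ZNF384. Of all tested genes, 17.9% and 23.4% were higher than with these 2 fusions. The glycolysis genes that rose numbered 9 to 14 when any 1 library was left out, and none fell without either of the control libraries.

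Part of the hypoxia response genes rose. Of 26 tested (28 listed; Adm and P4ha2 were not tested), 10 rose and 3 fell (median 0.22). Bnip3 (chromosome 7, 146082519 to 146101202) stood at 27.02 and 24.9 CPM with the empty vector and 70.5 and 86.8 CPM with full-length ZNF384, a log2 fold change of 1.60 ± 0.12 (adjusted p = 1.79e-06). Its level with the fusions was 37.4 and 39.9 CPM with TAF15-ZNF384 and 39.1 and 37.2 CPM with TCF3-ZNF384, above the empty vector and below full-length ZNF384. Egln3 stood at 2.62 and 3.10 CPM with the empty vector and 9.31 and 10.9 CPM with full-length ZNF384. Pdk1, a pyruvate dehydrogenase kinase, stood at 48.5 and 44.7 CPM with the empty vector and 115 and 136 CPM with full-length ZNF384. Egln3 and Pdk1 rose, with log2 fold changes of 1.81 ± 0.18 (adjusted p = 1.95e-05) and 1.43 ± 0.11 (adjusted p = 1.85e-06). Of hypoxia genes with a promoter in the table, 7 of the 9 that rose held ACGTG, beside 18 of all 22 tested. For glycolysis the counts were 7 of 12 and 15 of 21, so neither list held ACGTG more often among the genes that rose. Pfkl and Tpi1 held none in this window.

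The 3 members of the hypoxia list that fell were Bhlhe40, Ddit4 and Vegfa. Bhlhe40, a circadian and stress repressor, stood at 166 and 187 CPM with the empty vector and 50.6 and 60.9 CPM with full-length ZNF384, a log2 fold change of -1.67 ± 0.12 (adjusted p = 1.79e-06). Ddit4, an inhibitor of mTORC1 that is also an ATF4 target, stood at 627 and 703 CPM with the empty vector and 227 and 395 CPM with full-length ZNF384, a log2 fold change of -1.10 ± 0.23 (adjusted p = 0.0135). The growth factor gene Vegfa had a log2 fold change of -0.59 ± 0.12 (adjusted p = 0.00402). Ddit4 (-1.01) and Vegfa (-0.47) did not pass without empty vector replicate 2. The hypoxia genes that rose numbered 6 without empty vector replicate 2, 6 without full-length ZNF384 replicate 2 and 6 after thinning to the total count of the shallowest library, and 1 member fell without empty vector replicate 2.

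Most tested genes of sterol synthesis rose. Of 24 tested genes of cholesterol synthesis and uptake (26 listed), 17 rose and none fell, with a median of 0.69. Hsd17b7, a ketoreductase of the late pathway, stood at 33.7 and 35.6 CPM with the empty vector and 78.9 and 80.3 CPM with full-length ZNF384, and Stard4, a sterol transport protein, at 115 and 115 CPM with the empty vector and 216 and 204 CPM with full-length ZNF384. Both full-length libraries lay above the other 6 for these genes, and the log2 fold changes were 1.20 ± 0.11 (adjusted p = 7.38e-06) and 0.87 ± 0.09 (adjusted p = 2.49e-05). The early enzyme Fdps and the squalene epoxidase Sqle, chosen after their values were seen, gave 1.41 ± 0.17 (adjusted p = 6.71e-05) and 1.30 ± 0.16 (adjusted p = 8.18e-05). Insig1, which retains SREBP in the endoplasmic reticulum and is itself a SREBP target, and Scap, its partner, did not pass, at -0.15 ± 0.11 (adjusted p = 0.36) and 0.00 ± 0.12 (adjusted p = 0.994).

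Of 14 tested genes of fatty acid synthesis (Me1 was not tested), 11 rose and none fell (median 0.67). Scd2 (chromosome 19, 44368166 to 44381354) and Scd1, stearoyl-CoA desaturases, stood at 69.1 and 63.8 CPM with the empty vector and 168 and 217 CPM with full-length ZNF384 and at 27.4 and 29.6 CPM with the empty vector and 66.3 and 88.1 CPM with full-length ZNF384. Both rose, with log2 fold changes of 1.53 ± 0.12 (adjusted p = 2.51e-06) and 1.44 ± 0.13 (adjusted p = 7.38e-06). Elovl6, an elongase, stood at 294 and 271 CPM with the empty vector and 710.2 and 569 CPM with full-length ZNF384, and Fasn, fatty acid synthase, at 1303 and 1372 CPM with the empty vector and 2429 and 2136 CPM with full-length ZNF384. Both rose, with log2 fold changes of 1.18 ± 0.11 (adjusted p = 1.09e-05) and 0.77 ± 0.10 (adjusted p = 0.000121). Srebf1 did not pass (0.22 ± 0.12 (adjusted p = 0.23)). Higher than with TAF15-ZNF384 were 18 of 24 cholesterol and 13 of 14 fatty acid genes, beside 17.9% of all tested genes. Higher than with TCF3-ZNF384 were 19 and 12, beside 23.4% of all tested genes. When any 1 library was left out, 14 to 17 cholesterol genes and 8 to 11 fatty acid genes rose.

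**Figure D4:**
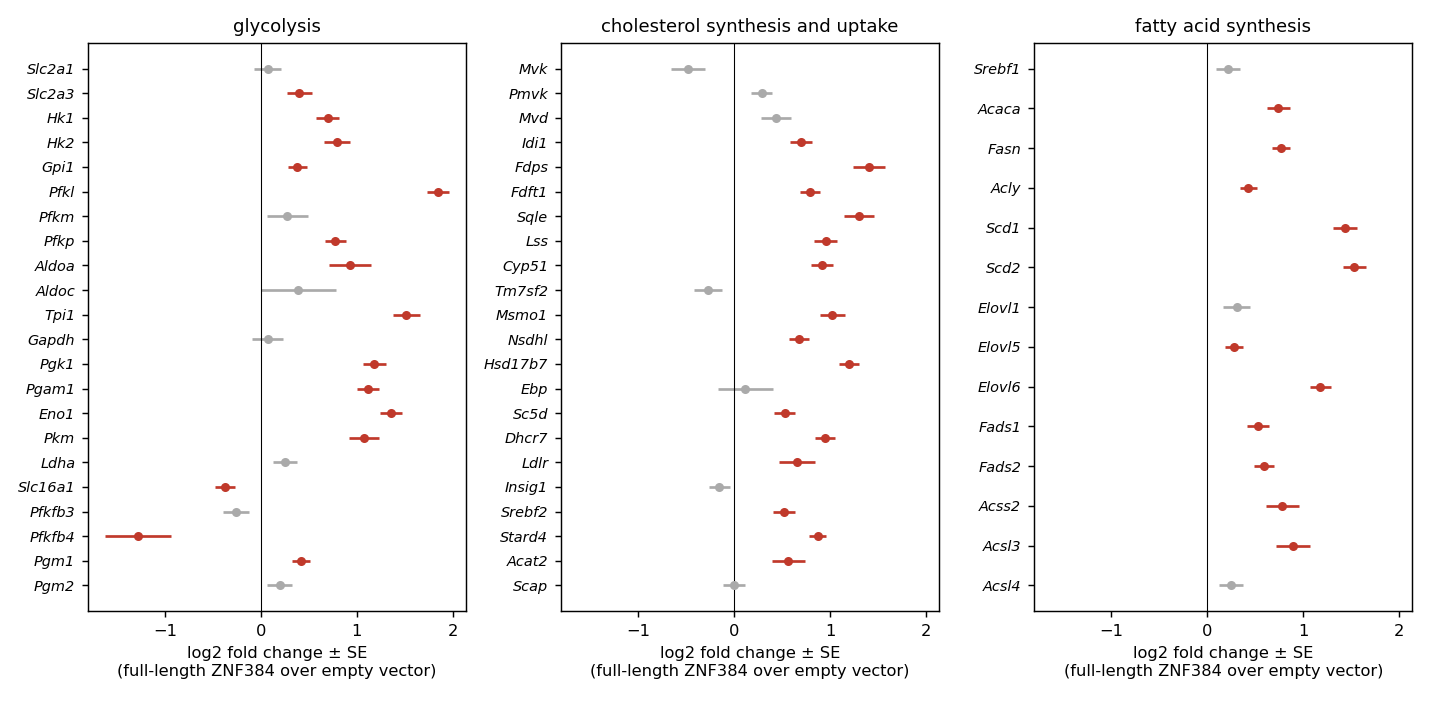
Log2 fold change ± SE of full-length ZNF384 over the empty vector for the 22 tested genes of glycolysis, 22 of the 24 of cholesterol synthesis and uptake, and the 14 of fatty acid synthesis; red points have an adjusted p under 0.05 and the line marks no change. Red points lie right of the line for 13, 15 and 11 genes, and left of it for 2 glycolysis genes, Pfkfb4 and Slc16a1.

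Growth and division genes were described by several lists, to be read beside the 10.8% of all tested genes that rose and 9.87% that fell. Of 33 tested genes of the MYC network and ribosome biogenesis, 14 rose and 1 fell (median 0.23). Amd1, of polyamine synthesis, rose from 86.97 and 73.3 CPM to 201 and 135 CPM, and Polr1b, an RNA polymerase I subunit, from 21.3 and 19.8 CPM to 35.7 and 30.3 CPM. The log2 fold changes were 1.07 ± 0.16 (adjusted p = 0.00104) and 0.68 ± 0.11 (adjusted p = 0.000937). Mxd1, which competes with MYC for MAX, was the member that fell, from 116 and 143 CPM to 23.2 and 31.6 CPM, a log2 fold change of -2.25 ± 0.16 (adjusted p = 2.66e-06). The members that rose numbered 9 without empty vector replicate 1, 4 without empty vector replicate 2 and 8 when only the 4 libraries were fitted. Of 44 cytosolic ribosomal protein genes 1 rose, Rpl37, and none fell (median -0.11), and Rpl37 did not pass without empty vector replicate 2 (0.37). Without full-length ZNF384 replicate 1, 15 of them fell. Of 37 nuclear-encoded genes of oxidative phosphorylation 3 rose (median 0.17), and 1 to 16 did when any 1 library was left out. Ribosomal protein genes have many near-identical copies in the genome, so reads may be assigned elsewhere.

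Mitosis and spindle genes rose in 12 of 38 cases (31.6%) and fell in none (median 0.29), where 10.8% of all tested genes rose and 9.87% fell. Ube2c, which drives the exit from mitosis, stood at 130.02 and 118 CPM with the empty vector and 246 and 177 CPM with full-length ZNF384, and Ect2, of cytokinesis, at 12.7 and 12.8 CPM with the empty vector and 18.9 and 18.6 CPM with full-length ZNF384. Their log2 fold changes were 0.77 ± 0.15 (adjusted p = 0.00434) and 0.55 ± 0.11 (adjusted p = 0.0038), whereas Mki67 and Top2a did not pass (0.18 and 0.26). This count rested on single libraries: it was 4 without empty vector replicate 1, 3 without empty vector replicate 2, 4 without full-length ZNF384 replicate 1 and 26 without replicate 2. Of 37 DNA replication genes 1 rose and 3 fell, Orc6 among the latter at a log2 fold change of -0.85 ± 0.13 (adjusted p = 0.000529); the counts were 13 and 2 without full-length ZNF384 replicate 2, and 0 and 7 without replicate 1.

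Among 44 histone genes of the replication-dependent kind, 19 fell and 2 rose (median -0.26). Hist1h1a, a linker histone gene, stood at 4939 and 4727 CPM with the empty vector and 2908 and 2744 CPM with full-length ZNF384, a log2 fold change of -0.77 ± 0.10 (adjusted p = 0.000115). Hist1h4h and Hist1h4d did not pass (-0.05 and -0.13). Histone genes are near-identical within a family, and the count that fell was 10 without either of the control libraries. The median was -0.80 with TCF3-ZNF384 and -0.21 with TAF15-ZNF384 against the empty vector.

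Among D-type cyclins and CDK inhibitors, 4 of 15 rose and 3 fell. Ccnd3 and Ccnd2, cyclins of pre-B cell proliferation, stood at 141 and 125 CPM with the empty vector and 250.02 and 263 CPM with full-length ZNF384 and at 755 and 634 CPM with the empty vector and 1164 and 1166 CPM with full-length ZNF384. Both rose, with log2 fold changes of 0.95 ± 0.10 (adjusted p = 2.4e-05) and 0.75 ± 0.10 (adjusted p = 0.000228). In the cells with the fusions Ccnd3 stood at 102 and 111 CPM with TAF15-ZNF384 and 90.9 and 94.5 CPM with TCF3-ZNF384, and Ccnd2 at 1177 and 1071 CPM with TAF15-ZNF384 and 1302 and 1314 CPM with TCF3-ZNF384. The inhibitor gene Cdkn1a, a p53 target, fell from 34.1 and 38.1 CPM to 18.7 and 22.9 CPM, a log2 fold change of -0.80 ± 0.12 (adjusted p = 0.000381). Cdkn1c, with 5 counts over the full-length libraries, fell, at a log2 fold change of -4.29 ± 0.68 (adjusted p = 0.000683). Cdkn1b, the inhibitor p27, did not pass (-0.01). Cdkn2a, whose Arf product the cells lack, gave 59.7 and 60.4 CPM with the empty vector and 58.95 and 79.3 CPM with full-length ZNF384 and did not pass (0.20 ± 0.13 (adjusted p = 0.29)); gene counts do not separate Arf from Ink4a. The members that rose numbered 2 without empty vector replicate 2.

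Of 28 tested p53 targets (32 listed), 11 fell and 2 rose, with a median of -0.30. Plk3, a stress kinase, stood at 14.2 and 22.7 CPM with the empty vector and 2.82 and 2.93 CPM with full-length ZNF384, a log2 fold change of -2.69 ± 0.25 (adjusted p = 3.84e-05). Bbc3, which encodes the proapoptotic PUMA, stood at 43.8 and 44.3 CPM with the empty vector and 13.1 and 16.3 CPM with full-length ZNF384, a log2 fold change of -1.60 ± 0.13 (adjusted p = 3.16e-06). Mdm4, an inhibitor of p53, did not pass (0.21), and 4 listed genes, Phlda3, Perp, Ddit4l and Dram1, were not tested. Several members, among them Cdkn1a and Plk3, also answer to signals other than p53. Without either of the control libraries none rose. Against each fusion, 16 of the 28 were lower with full-length ZNF384 and 1 was higher. Of all tested genes, 15.4% and 22.2% were lower, and 17.9% and 23.4% higher, than with TAF15-ZNF384 and TCF3-ZNF384.

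The BCL2 family shifted in both directions, with 4 of 15 tested genes higher (26.7%) and 4 lower (26.7%). Among all tested genes 10.8% were higher and 9.87% lower. Bcl2 (chromosome 1, 108434755 to 108610851), which blocks apoptosis, stood at 175 and 153 CPM with the empty vector and 354 and 389 CPM with full-length ZNF384. It rose, at a log2 fold change of 1.18 ± 0.11 (adjusted p = 7.66e-06). With the fusions it stood at 90.8 and 99.1 CPM with TAF15-ZNF384 and 53.3 and 48.7 CPM with TCF3-ZNF384, below full-length ZNF384 by log2 differences that passed against both. Bbc3, Bcl2l11 (BIM) and Pmaip1 (NOXA), which promote apoptosis, fell, the last 2 from 17.9 and 26.3 CPM to 10.1 and 11.4 CPM and from 24.5 and 34.3 CPM to 12.3 and 14.5 CPM. Their log2 fold changes were -1.05 ± 0.16 (adjusted p = 0.000619) and -1.14 ± 0.18 (adjusted p = 0.00146), and that of Pmaip1 did not pass without full-length ZNF384 replicate 1 (-1.04). Bcl2l12 rose, at a log2 fold change of 0.59 ± 0.10 (adjusted p = 0.00104), whereas Mcl1 did not pass (-0.06 ± 0.09 (adjusted p = 0.647)). The members that rose numbered 2 without empty vector replicate 1.

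B lineage genes moved in both directions. Of 26 tested B lineage transcription factors, 6 rose (23.1%) and 8 fell (30.8%), beside 10.8% and 9.87% of all tested genes (median -0.13). Bcl6 (chromosome 16, 23965138 to 23988938), a repressor induced by loss of IL-7 signalling, stood at 34.7 and 39.3 CPM with the empty vector and 13.9 and 16.6 CPM with full-length ZNF384, a log2 fold change of -1.29 ± 0.12 (adjusted p = 9.44e-06). Irf4, which promotes light chain rearrangement, stood at 304 and 328 CPM with the empty vector and 161 and 196 CPM with full-length ZNF384, and Ikzf3, the factor Aiolos, at 151 and 155 CPM with the empty vector and 94.1 and 107 CPM with full-length ZNF384. Both fell, with log2 fold changes of -0.83 ± 0.11 (adjusted p = 0.000175) and -0.61 ± 0.10 (adjusted p = 0.00077). Foxo1, an activator of the Rag genes that was chosen after its values were seen, fell from 192 and 189 CPM to 122 and 119.7 CPM, a log2 fold change of -0.66 ± 0.11 (adjusted p = 0.00119). Id3, an inhibitor of E proteins, fell, at a log2 fold change of -0.80 ± 0.12 (adjusted p = 0.000546). Pax5 and Ets1 did not pass (-0.15 ± 0.09 (adjusted p = 0.277) and -0.20 ± 0.10 (adjusted p = 0.161)). Of these factors 1 rose when either control library was left out, and 5 fell without empty vector replicate 2 and 5 without full-length ZNF384 replicate 1.

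Dntt (chromosome 19, 41103765 to 41134013) encodes terminal transferase, which adds nucleotides at V(D)J junctions in early B cell progenitors. It stood at 2.70 and 2.90 CPM with the empty vector and 9.49 and 18.04 CPM with full-length ZNF384, a log2 fold change of 2.26 ± 0.34 (adjusted p = 0.0033). TCF3-ZNF384 held more, at 60.7 and 53.5 CPM, and full-length ZNF384 was lower than TCF3-ZNF384 by a log2 of -2.08 ± 0.28 (adjusted p = 0.000613). With TAF15-ZNF384 the level was 23.3 and 16.9 CPM, which overlapped full-length ZNF384, and the difference did not pass (-0.58 ± 0.30 (adjusted p = 0.18)). Of the 14 tested genes of V(D)J recombination, Dntt and Xrcc5 rose (14.3%) and Xrcc6 fell (7.14%), near the 10.8% and 9.87% of all tested genes. Xrcc5 and Xrcc6 encode the subunits of Ku, which binds broken DNA ends. Xrcc6 stood at 114 and 106 CPM with the empty vector and 54.4 and 70.9 CPM with full-length ZNF384 and had a log2 fold change of -0.82 ± 0.12 (adjusted p = 0.000328). Xrcc5 had a log2 fold change of 0.43 ± 0.12 (adjusted p = 0.0174), which did not pass without either control library (0.47 and 0.40) or without full-length ZNF384 replicate 1 (0.24).

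Among B cell surface proteins, 5 of 24 tested genes rose (20.8%) and 5 fell (20.8%), beside 10.8% and 9.87% of all tested genes. Cd93, a marker of immature B cells, stood at 1345 and 1234 CPM with the empty vector and 1887 and 1922 CPM with full-length ZNF384, and Cd22, an inhibitory coreceptor, at 6.88 and 9.68 CPM with the empty vector and 17.4 and 21.9 CPM with full-length ZNF384. They rose, with log2 fold changes of 0.56 ± 0.09 (adjusted p = 0.000754) and 1.24 ± 0.18 (adjusted p = 0.000381). Ly6d and Cd72, which mark B lineage cells, fell, from 51.4 and 54.1 CPM to 16.3 and 28.6 CPM and from 47.3 and 40.6 CPM to 22.4 and 31.98 CPM. The log2 fold changes were -1.25 ± 0.24 (adjusted p = 0.0106) and -0.70 ± 0.15 (adjusted p = 0.00567), and Ly6d did not pass without empty vector replicate 2 (-1.21). Cd24a and Spn did not pass (0.02 and 0.27). Without empty vector replicate 2, 3 members fell. Gimap7 (chromosome 6, 48668620 to 48674635), a GTPase of lymphocyte survival outside this list, showed the largest increase of all named genes, from 1.17 and 1.05 CPM to 6.10 and 6.20 CPM, a log2 fold change of 2.46 ± 0.31 (adjusted p = 0.000108).

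**Figure D5:**
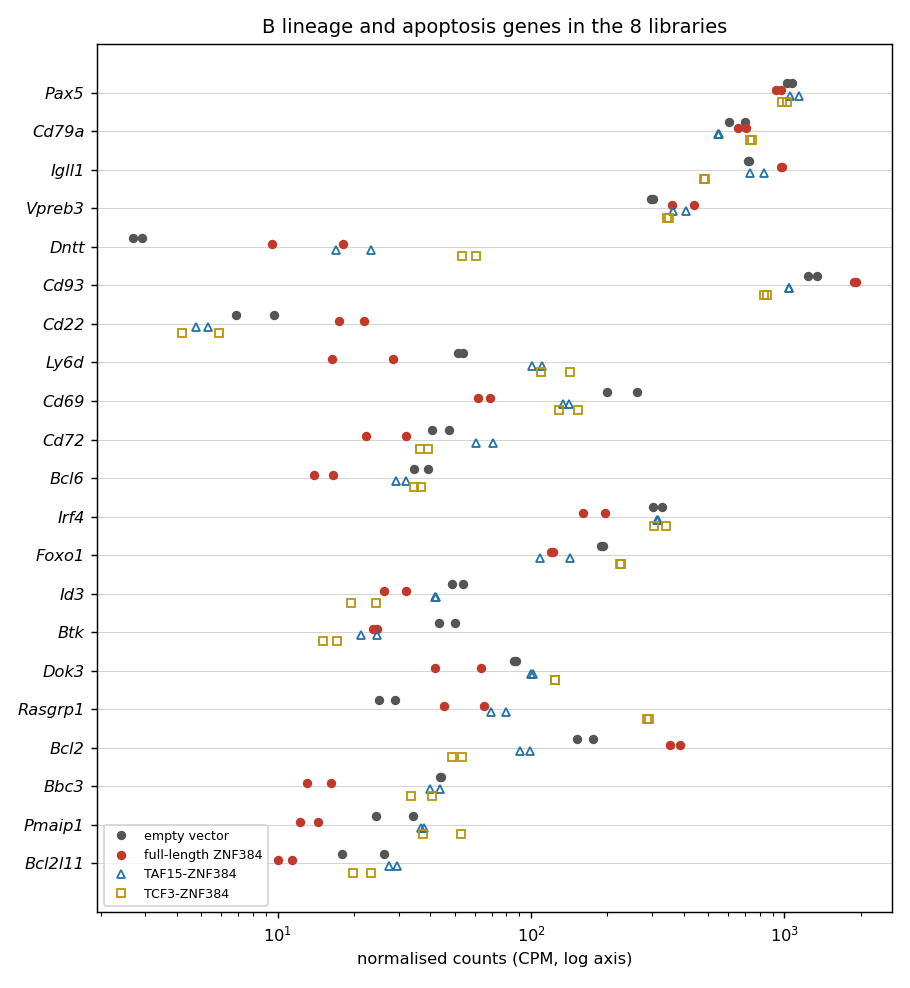
Normalised counts (CPM, log axis) of named B lineage and BCL2 family genes in the 8 libraries; each point is 1 library. Cd93, Cd22 and Bcl2 lie higher with full-length ZNF384 than in the other 6 libraries, Bcl6, Irf4, Cd69, Bbc3, Pmaip1 and Bcl2l11 lie lower, and Pax5 and Cd79a overlap or nearly so.

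In pre-B cell receptor signalling 5 of 33 tested genes rose (15.2%) and 4 fell (12.1%), near the 10.8% and 9.87% of all tested genes. Btk, a kinase downstream of the receptor, fell from 50.01 and 43.4 CPM to 23.7 and 24.8 CPM, a log2 fold change of -0.95 ± 0.11 (adjusted p = 8e-05). With the fusions it stood at 24.7 and 21.4 CPM with TAF15-ZNF384 and 17.1 and 15.1 CPM with TCF3-ZNF384. Dok3, an inhibitory adaptor, fell from 85.9 and 87.02 CPM to 41.8 and 63.2 CPM and gave a log2 fold change of -0.73 ± 0.15 (adjusted p = 0.00421). Rasgrp1, which links the receptor to RAS, rose, and its log2 fold change was 1.02 ± 0.15 (adjusted p = 0.000567). Cd79a and Plcg2 did not pass (0.07 and 0.10). The members that rose numbered 3 and 2 and those that fell 2 and 2 without empty vector replicates 1 and 2, and 11 fell without full-length ZNF384 replicate 2. Of 22 tested genes of the IL-7 receptor and JAK-STAT pathway, 5 fell (22.7%) and 1, Bcl2, rose (4.55%). Among all tested genes 9.87% fell and 10.8% rose. Pim2, a survival kinase induced by STAT5, fell from 184 and 158 CPM to 64.5 and 97.1 CPM, a log2 fold change of -1.09 ± 0.16 (adjusted p = 0.000963). Socs2 and Jak1 did not pass (0.26 and 0.02). The members that fell numbered 1 without empty vector replicate 2 and 2 without full-length ZNF384 replicate 1.

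Of 12 genes linked to ZNF384-rearranged leukaemia 5 were tested, since 7 had too few counts. Flt3, a cytokine receptor of progenitors, fell from 2.23 and 2.86 CPM to 0.642 and 0.612 CPM, a log2 fold change of -2.00 ± 0.25 (adjusted p = 9.96e-05), whereas its level with the fusions was 4.35 and 4.65 CPM with TAF15-ZNF384 and 18.4 and 19.8 CPM with TCF3-ZNF384. Il2ra, the receptor chain CD25, stood at 14.5 and 8.79 CPM with the empty vector and 10.7 and 15.5 CPM with full-length ZNF384, with overlapping groups, and the fusions held 36.5 and 29.8 CPM with TAF15-ZNF384 and 172 and 164 CPM with TCF3-ZNF384. It did not pass against the empty vector (0.15 ± 0.25 (adjusted p = 0.717)) and was lower than with TCF3-ZNF384 by a log2 of -3.70 ± 0.24 (adjusted p = 7.42e-06). The list medians against the empty vector were 0.15 for full-length ZNF384, 1.51 for TAF15-ZNF384 and 3.85 for TCF3-ZNF384. Of 25 genes of chromatin methylation and demethylation, 2 rose (8%) and 1 fell (4%), beside 10.8% and 9.87% of all tested genes. The list median was 0.10, with Tet3 and Ezh2 not past the threshold (-0.01 and 0.15).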

How the data were processed

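The deposited values were raw counts per gene, whole numbers for which the submitters' processing notes name HTSeq 0.6.1p1 and the build mm9. The aligner, the annotation and the strand setting are not given in the sources used here, so genes that overlap on opposite strands may share reads. The labels describe total RNA from GFP-sorted cells, purified on columns and made into stranded total RNA libraries.

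All 8 columns of the table were matched to samples by name, and none was left over. Counts were fitted in R 4.3.3 with edgeR 4.0.16: filterByExpr by group, TMM scaling, 1 term per group over the 8 libraries, robust quasi-likelihood dispersion with 4 residual degrees of freedom, and 2-sided F tests with the Benjamini-Hochberg adjustment over 12970 genes at a threshold of 0.05. The common biological coefficient of variation was 0.0958, and log2 counts of replicates correlated across genes at 0.996 (empty vector) and 0.994 (full-length ZNF384). The script was tested on simulated data. No label says that replicates came from separate mice, so p-values measure only the spread between these cultures.

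The comparison, the gene lists (984 names in 40 lists, 974 of them in the table) and the tests were chosen with earlier results of these data known, and lists are described by counts and medians without a set test. Genes were named by a rule. Among genes past the threshold whose groups did not overlap, it took the 15 largest changes each way where the higher group averaged at least 5 CPM, and the 8 largest where it averaged at least 50 CPM. From a list it took the lowest adjusted p values, up to 4 each way, and up to 2 members with the highest counts among those that did not pass. Zfp384, Taf15, Tcf3 and Cdkn2a were added, gene models without a proper name were left out, and part of the genes taken is printed; some of them are not reported here. Gene coordinates are those of mm9 in GENCODE vM1, matched by symbol, and promoters are those of RefSeq on GRCm38.p6, matched by symbol or synonym. Counting intervals are exact binomial at 95% and came from scipy 1.17.1. DESeq2 1.42.0 and limma-voom (limma 3.58.1) served as alternatives, together with other scalings and filters, a fit of 4 libraries, thinning to the shallowest library, a replicate block and the removal of each library.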

Additional observations from a re-analysis of the deposited data

How the results depend on the processing

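With 14 alternatives, 130 of the 204 printed or rule-named genes past the threshold kept their call and direction in all, and 74 lost the call without 1 library. The count of changed genes was 2632 with DESeq2 size factors, 2071 with the DESeq2 Wald test, 2956 with voom, 3047 without a filter, 2560 with at least 2 CPM in 2 libraries, 2102 after thinning, 2604 with TMM and 2453 with total-count scaling once the 5 abundant non-coding genes were left out, and 1787 when only the 4 libraries were fitted. In that fit 746 genes rose, against 1395. When each library was left out in turn, with the lone library of its group assumed to vary like the other groups, 1064 to 3814 genes changed, 458 to 2160 rose, 606 to 1654 fell, and 400 to 674 changed at least 2-fold. The replicate block called 2999 genes, 1601 higher and 1398 lower. The labels do not say that a replicate number marks a shared culture or day, and deviations of libraries with the same number correlated at -0.012 to 0.22 between groups (0.18 for the 2 groups compared), so the numbers were not taken to pair the libraries. Among list medians, that of heat shock genes turned to -0.19 without full-length ZNF384 replicate 1 and was 0.21 without replicate 2, that of cytokine and TNF family genes to 0.048 after thinning, and that of erythroid and megakaryocyte markers to -0.36 with at least 2 CPM in 2 libraries and to -0.23 after thinning. Mxd4, which did not pass with all libraries, turned to -0.29 (edgeR adjusted p = 0.0132) without full-length ZNF384 replicate 2 and was 0.47 without replicate 1, past the threshold in both. The cause was not tested. With 2 libraries per group, 4 residual degrees of freedom and full-length libraries of 41483660 and 20298726 counts, a gene that did not pass is not shown to be alike in both groups.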
